A study of Nasonia vitripennis with 39 samples.

Results

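The 200 loci described here carry a numbered LOC symbol and no descriptive name, and were picked because their RNA was far more abundant in abdomens of diploid females than in male abdomens or in female heads. A locus was taken where its mean level in 2N female abdomens was at least 16 times that in each of 4 other groups (2N and 1N male abdomens, 3N and 2N female heads, with 0.1 TPM added to every mean) and reached at least 10 TPM, and the 200 with the highest means were kept. TPM is a level scaled for gene length and library total, so it can be compared between genes. Of 14613 genes with a TPM value, 435 numbered loci passed both thresholds, and 235 of these lay below the 200 highest. A further 18 genes with a descriptive name passed the same thresholds and are used below as company for the loci. One locus, LOC100121630, was kept out by the selection rule, and the 2N female head library B21 was left out of the means that chose the loci. What chose the loci is therefore their level in 2N female abdomens, 2N and 1N male abdomens, and 3N and 2N female heads. The 3N female abdomens, the male heads and B21 were not used.

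The study sequenced poly(A) RNA of the parasitic wasp Nasonia vitripennis, with head and abdomen as separate samples collected 1 day after adults emerged. The strain throughout was WPL, the Whiting Polyploid Line, in which polyploidy arose spontaneously, and genotypes carry the labels WPL_LSL_3N, WPL_LSL_2N or WPL_LSL_1N by the number of chromosome sets. The 39 libraries comprised 5 abdomens of 3N females and 4 of 2N females, 5 abdomens each of 2N and 1N males, 5 heads each of 3N and 2N females, and 5 heads each of 2N and 1N males. Neither the number of animals behind a library nor which head belongs to which abdomen is labelled, so the spread that p-values are based on may be technical.

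In wasps the abdomen of a female holds the ovaries, in which nurse cells make RNA and pass it to the growing oocytes. Much of the RNA that an early embryo uses is laid down in this way, including that of oskar and nanos, which in Drosophila act in germ cell formation and posterior patterning. The female abdomen also holds the venom apparatus, gut, fat body, muscle and cuticle. Whole abdomens were sequenced, so the loci are called female-abdomen-enriched below, and no organ is assigned to them. The gene table used here (RefSeq, assembly Nvit_psr_1.1) holds symbols and gene order but no descriptions of function, so no role is given to any of the 200.

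Depth was 17.3 to 79.3 M estimated counts in 3N female abdomens, 19.9 to 45.0 M in 2N female abdomens and 16.3 to 132 M elsewhere. Among the 9 measured genes on a list of ovary and oocyte markers, 5 passed the thresholds that chose the loci. These were oskar, nanos, cycB, Cdk1 and Bora, the last 3 being genes of the cell division cycle. Cad, Cenp-a, Dnmt1a and Gt did not pass them. Cenp-a averaged 109 TPM in 3N female heads and 68.5 to 72.4 TPM in the other groups of heads (without B21). In 3N and 2N female abdomens it averaged 75.4 and 157 TPM. Cad averaged 41.2 TPM in 3N and 42.8 TPM in 2N female abdomens. The list summed to 1446 to 3945 TPM in 3N female abdomens and 3311 to 4303 TPM in 2N female abdomens, and to no more than 183 TPM in any male or head library except B21, which reached 296 TPM. Markers of other tissues were also present in female abdomens, as given beside the ploidy comparison. Some libraries stood apart from their groups. B39A differed from the other 3N female abdomens, B21 from the other 2N female heads, and B5D from the other 1N male heads, in the way described for each below. B6A, a 1N male abdomen, had the highest summed level of the loci in its group, and it enters no comparison of female abdomens except through the shared estimate of spread.

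The loci made up a large share of the RNA in female abdomens and nearly none elsewhere. Their summed level was 3.93%, 4.55%, 3.69%, 8.74% and 5.42% of all TPM in the 3N female abdomens B36A, B37A, B38, B39A and B40A, against 8.57%, 9.59%, 9.25% and 9.41% in the 2N female abdomens B26A, B27, B28A and B30. The other groups ranged from 0.0627% to 0.112%, apart from B21 at 0.474% and B5D at 0.542%. The median locus averaged 138 TPM in 3N female abdomens (range over loci 46.6 to 3932) and 248 TPM in 2N female abdomens (range 113 to 6592). In the other groups the median locus averaged 0.776 TPM in 2N male abdomens, 0.952 TPM in 1N male abdomens, 1.19 TPM in 3N female heads, 1.29 TPM in 2N female heads without B21, 0.965 TPM in 2N male heads and 1.11 TPM in 1N male heads. The plot of levels by library shows the 9 female abdomens standing above all others and B21 between the 2 levels.

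**Figure D1:**
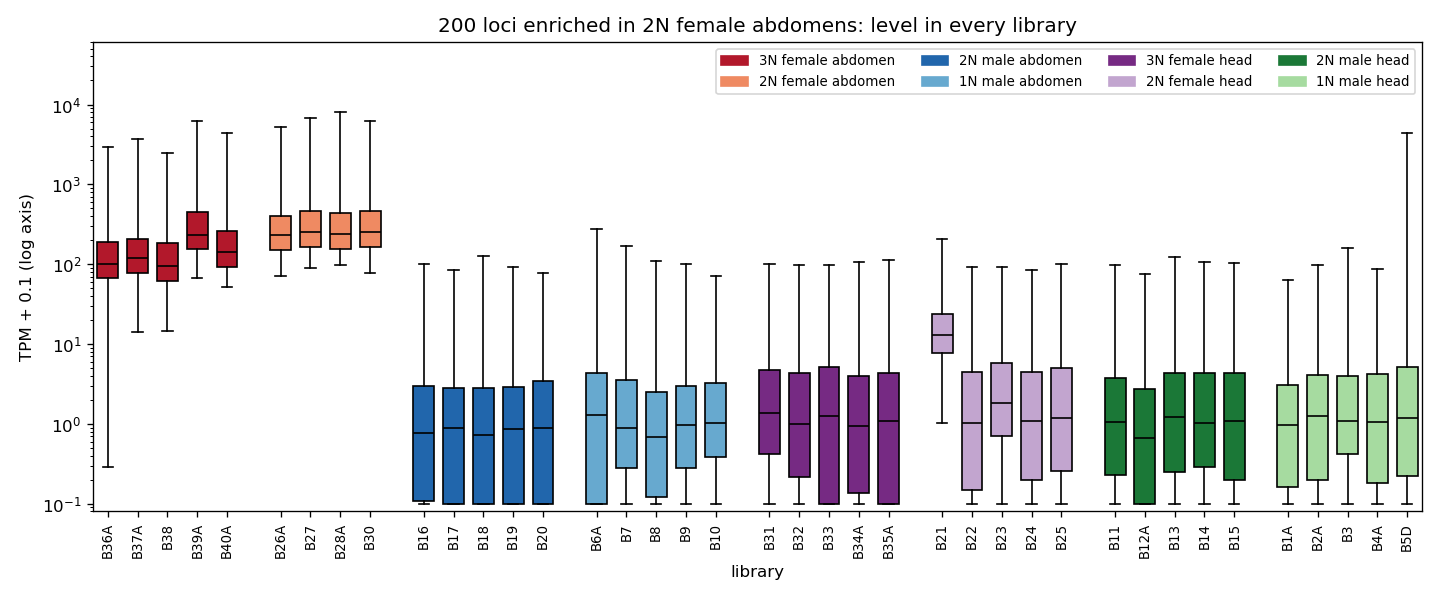
Level of the 200 loci in each of the 39 libraries, as TPM with 0.1 added, on a log axis, grouped by ploidy, sex and tissue. Boxes span the quartiles, lines mark medians and whiskers reach the lowest and highest locus. The median locus averaged 138 TPM in 3N and 248 TPM in 2N female abdomens, and B21 stands out among the 2N female heads.

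How strictly a locus was limited to female abdomens varied. The ratio of the 2N female abdomen mean to the highest of the 4 low groups used for selection ran from 16.2 to 1548, with a median of 144 and quartiles of 39.8 and 427. Of the 200 loci, 73 averaged under 1 TPM in all 4 low groups, 104 averaged 1 to 10 TPM in the highest of them, and 23 averaged 10 TPM or more there. In the male heads, which were not used for selection, 63 loci stayed under 1 TPM in every library and 3 were listed at 0 in all of them. The order of the loci by level was nearly the same in 3N and 2N female abdomens (Spearman's rho 0.958 over the 200 loci) and was only weakly related to their order in heads (rho 0.147 between 3N female abdomens and 2N male heads). Among heads the orders were again alike (rho 0.914 between 3N female and 2N male heads, and 0.952 between 2N and 1N male heads). These are descriptions over loci, which are not independent replicates and share libraries.

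The most abundant locus was LOC100113517. It had 2897, 3716, 2441, 6188 and 4418 TPM in the 3N female abdomens B36A to B40A, against 5187, 6858, 8143 and 6179 TPM in the 2N female abdomens B26A, B27, B28A and B30. It had 0.63 to 3.53 TPM in 2N male abdomens and 0 to 4.49 TPM in 1N male abdomens. Only B39A lay within the range of the 2N female abdomens.

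LOC100118094, the second most abundant, had 1493, 1752, 1127, 2835 and 1817 TPM in 3N female abdomens, against 3752, 3525, 3365 and 3629.9 TPM in 2N female abdomens. All 3N libraries, B39A included, lay below all 2N libraries. In contrast to LOC100113517 it was also present in the other groups, at 52.9 to 128 TPM in 2N male abdomens and 71.0 to 273 TPM in 1N male abdomens. LOC100121988 was present outside female abdomens too, at a steadier level. It averaged 1841 ± 884 TPM in 3N and 2799 ± 529 TPM in 2N female abdomens (SD, n = 5 and 4), and 90.2 to 114 TPM in 3N female heads, against 73.4 to 84.0 TPM in 2N female heads other than B21.

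The threshold on level has no natural break. The last loci inside were LOC100118080, LOC100123833 and LOC100115936, at 113.4, 113.1 and 113.1 TPM in 2N female abdomens. The next outside were LOC100116276, LOC100121417 and LOC116416136, at 111.8, 110.8 and 110.2 TPM.

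**Figure D2:**
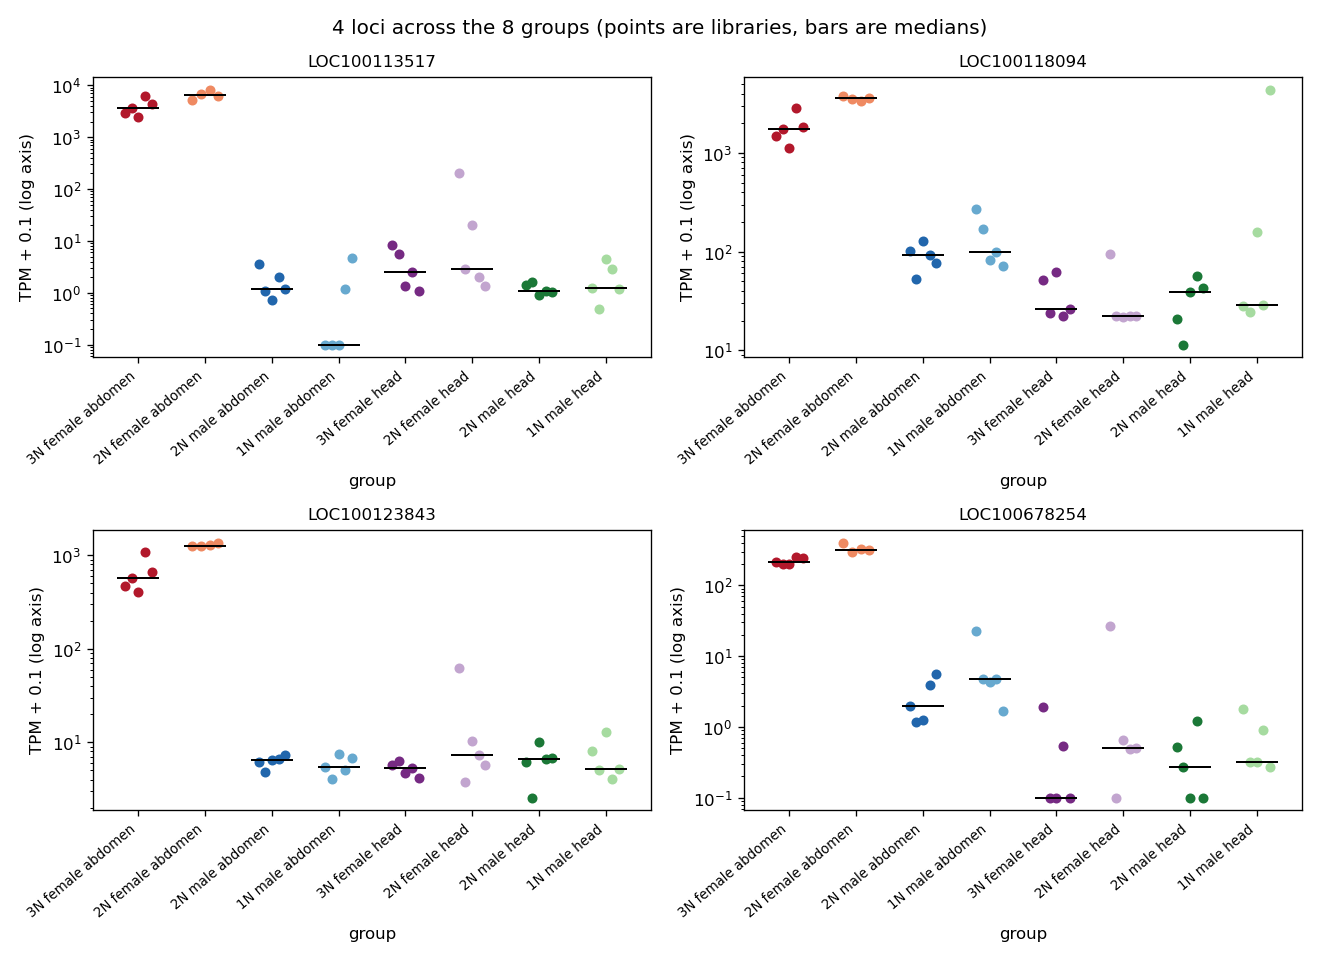
TPM with 0.1 added, on a log axis, of LOC100113517, LOC100118094, LOC100123843 and LOC100678254 in the 8 groups, with points for libraries and bars for medians. Female abdomens stand above the other groups in all 4, the 1N male head B5D reaches 4347 TPM for LOC100118094, and the 2N female head B21 is the highest head library for LOC100113517, LOC100123843 and LOC100678254.

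The loci were then compared between 3N female abdomens and male heads, neither of which had been used to choose them. Sex, tissue and ploidy differ together in this comparison. All 200 loci were higher in 3N female abdomens at an adjusted p under 0.05 (edgeR quasi-likelihood test with Benjamini-Hochberg adjustment), where 38.1% of the 12402 genes tested were higher. The log2 difference had a median of 7.69 over the loci and ran from 3.71 to 14.8 (fitted values, which depend on a prior count where heads have few reads). For 196 loci the lowest 3N female abdomen lay above the highest male head, as it did for 20.6% of all genes tested. High levels in female abdomens were thus also seen in libraries that took no part in the choice.

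Between ploidies, the loci tended to be lower in 3N than in 2N female abdomens. By edgeR's quasi-likelihood test in a fit of all abdomens, 38 of 200 loci fell and 0 rose at an adjusted p under 0.05, and 52 had an unadjusted p under 0.05. Over the 11884 genes tested, 10.1% fell and 28.7% rose, and 47.3% had an unadjusted p under 0.05. Of the other genes at 10 TPM or more in 2N female abdomens, 19.5% fell and 8.76% rose. The share of the loci that fell, 19%, was thus close to that of those genes. The fitted log2 difference was below 0 for 197 loci, with a median of -0.67 and quartiles of -0.80 and -0.52, whereas all genes tested had a median of 0.10. The 2N female abdomens are also the group whose high level chose the loci, so the comparison shares its 2N libraries with the choice and is not independent of it. In whole abdomens, fewer cells of a type and less RNA per cell cannot be told apart.

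The fit with male abdomens, in which many of these loci are near 0, takes its estimate of spread from all 4 groups. With female abdomens alone, 158 of 200 loci fell (background 19.7% of 9962 genes), and with limma on log2(TPM + 1) 163 fell (background 24.1%). No locus rose in either. The median over the loci was -0.65 with female abdomens alone and -0.91 with limma on log2(TPM + 1), where all genes had medians of 0.0070 and -0.043. Relative to the median of all genes the loci were lower by 0.77 in the fit of all abdomens, 0.66 with female abdomens alone and 0.87 on the TPM scale (log2). Among all genes called, 73.9% were higher in 3N abdomens in the fit of all abdomens, against 60.2% and 44.8% in these other settings.

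Other genes of female abdomens also had medians below 0. The 235 loci that passed the thresholds at lower levels had a median log2 difference of -0.60, with 21 (8.94%) called lower and 0 higher. Of all genes tested, 10.1% were called lower. The 18 named genes had a median of -0.71. Bora, a regulator of mitotic entry, was called lower among them (log2 -0.88, adjusted p 0.0230 by edgeR, lost on leaving out any of 5 of 9 libraries). The 5848 other genes with at least 10 TPM in 2N female abdomens had a median of -0.23. Of those tested, 1140 (19.5%) were called lower and 512 (8.76%) higher. The difference between these medians and that of the 200 loci was not tested.

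The 3N libraries were not equally low. Against the mean of the 2N female abdomens, the median locus stood at -1.23 in B36A, -1.04 in B37A, -1.39 in B38, -0.09 in B39A and -0.80 in B40A (log2 of TPM). In the same order 197, 198, 196, 71 and 190 of the 200 loci lay below the lowest 2N library. B39A thus resembled the 2N abdomens, with 116 loci inside the 2N range and 13 above it, and it was the highest 3N library for 198 loci. B38 was the lowest 3N library for 136 loci and B36A for 56. Other genes at 10 TPM or more had medians of -0.62, -0.58, -0.58, 0.03 and -0.49 in the 5 libraries.

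**Figure D3:**
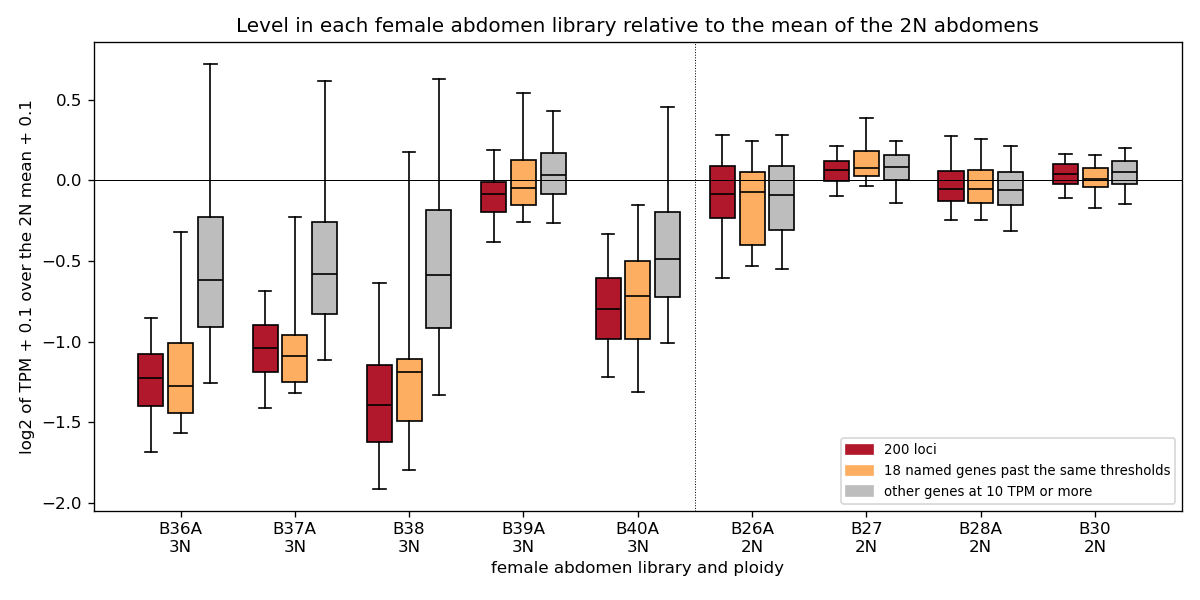
Log2 of the level in each female abdomen library (TPM + 0.1) over the mean of the 4 2N female abdomens (+ 0.1), for the 200 loci, the 18 named genes past the same thresholds and the other genes at 10 TPM or more in 2N female abdomens. Boxes span quartiles, lines mark medians, and whiskers run between the 5th and 95th percentiles. Medians of the 200 loci lie between -1.39 and -0.80 in 4 of the 3N libraries and at -0.09 in B39A.

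For 71 loci all 3N libraries lay below all 2N libraries, as for 7.59% of all genes tested. Without B39A this held for 185 loci, as for 33.9% of all genes. Without B39A the edgeR test called 52 loci lower (13.3% of all genes), and without any other single female abdomen between 14 (without B27, 3.28% of all genes) and 30 (without B40A, 7.64% of all genes). Just 10 of the 38 called loci were called on leaving out each library in turn. With libraries under 30 M counts alone, 18 loci were called lower (0.894% of all genes), 4 of which were among the 38.

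Several marker lists of other tissues had higher sums in 3N female abdomens. The 25 measured fat body and metabolism genes summed to 481 to 1791 TPM in 3N and 234 to 288 TPM in 2N female abdomens. Much of this was CYP4G43, which averaged 608 TPM in 3N and 181 TPM in 2N female abdomens. Most genes of the list were CYP4 or Mrjpl genes, so its sum was not assigned to the fat body. The hexamerins Hex109, Hex70b and Hex83 averaged 0.88, 0.984 and 2.18 TPM in 3N and 0.515, 0.0625 and 0.7425 TPM in 2N. Mrjpl3 lay the other way, at 45.5 TPM in 3N and 71.8 TPM in 2N. The 3 muscle genes summed to 496 to 1635 TPM in 3N and 373 to 401 TPM in 2N female abdomens. Of the muscle genes, Tm1 and Zasp66 carried that difference, whereas Tm2, a tropomyosin like Tm1, had 64.1 to 118 TPM in 3N and 113 to 136 TPM in 2N female abdomens. The 41 cuticle and epidermis genes summed to 1206 to 3178 TPM in 3N and 749 to 1317 TPM in 2N female abdomens. Most of the 2N sum was CPR39, which passed the thresholds itself, and the other 40 summed to 108 to 2694 TPM in 3N and 15.4 to 39 TPM in 2N female abdomens. The 16 neuronal genes summed to 9.69 to 26.6 TPM in 3N and 9.39 to 11.5 TPM in 2N female abdomens. The 2 genes of a list for sperm and cilia lay the other way, at 95.4 to 123 TPM in 3N and 118 to 148 TPM in 2N female abdomens. B39A had the lowest sum of the 3N libraries for fat body and metabolism, muscle, cuticle and neuronal genes. It had the highest sum for ovary and oocyte markers. B36A, where the loci were low, had the highest sums of fat body and metabolism, muscle, cuticle and neuronal genes. The order of the marker sums was not strict. B38, with the lowest summed level of the loci, had less of the fat body and metabolism genes (751 TPM) than B40A (1125 TPM). The part of these other tissues in the difference of the loci was not tested.

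The locus called lower most firmly was LOC100123843. It had 468, 569.7, 405, 1085 and 663 TPM in the 3N female abdomens B36A to B40A, against 1257, 1264, 1273 and 1355 TPM in the 2N female abdomens. No 3N library reached the 2N range, and B39A came closest. The log2 difference was -0.86 ± 0.19 (SE, adjusted p 0.00155, edgeR), and the adjusted p ran between 0.000202 and 0.00797 on leaving out each library. LOC100679130, LOC100680355, LOC100123962 and LOC100114323 followed, with log2 differences between -0.96 and -0.73 and adjusted p between 0.00476 and 0.00543 (edgeR), and all kept their call on leaving out each library. These 5 were chosen after their values were seen. LOC100680355 had 86.4, 98.9, 80.6, 234 and 109 TPM in 3N female abdomens, against 237, 287, 253 and 279.6 TPM in 2N female abdomens, so that B39A sat just under the 2N range.

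The largest fitted falls among called loci were those of LOC116416013, LOC116415987, LOC107980927, LOC100680355 and LOC100678974. LOC116416013 had 354, 457, 204, 799 and 466 TPM in 3N female abdomens, against 863, 949, 1264 and 1245 TPM in 2N female abdomens. Every 3N library lay below every 2N library. Its log2 difference was -1.29 ± 0.50 (SE, adjusted p 0.0490, edgeR), a call lost on leaving out any of 8 of the 9 libraries. LOC116415987 had 52.3, 96.7, 31.8, 119.7 and 66.6 TPM in 3N female abdomens, against 143, 147, 199 and 182 TPM in 2N female abdomens (log2 -1.26 ± 0.36, adjusted p 0.0188, edgeR). It too showed no overlap, and its call was lost without B28A, at an adjusted p of 0.0724 (edgeR). LOC107980927 had 68.8, 70.02, 59.96, 125 and 83.1 TPM in 3N female abdomens, against 194, 177, 181 and 176 TPM in 2N female abdomens. The 2N abdomens were nearly equal for this locus and the 3N abdomens all lower (log2 -1.02 ± 0.34, adjusted p 0.0239, edgeR), although the call was lost on leaving out any of 6 libraries. LOC100678974, the third most abundant locus, had 1335, 1114, 908, 2641 and 1457 TPM in 3N female abdomens, against 2675, 3358, 2726 and 3596 TPM in 2N female abdomens (log2 -0.89 ± 0.27, adjusted p 0.0154, edgeR), and was lost without B27. Its group ranges did not overlap, but B39A lay close under B26A.

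The size of the difference did not follow abundance (rho 0.0185 with the 2N mean over the 200 loci). Of the 10 most abundant loci, LOC100118094 (log2 -0.85, adjusted p 0.0324), LOC100678974, LOC100121988 (log2 -0.50, adjusted p 0.0496), LOC100113551 (log2 -0.85, adjusted p 0.0329) and LOC100119050 (log2 -0.54, adjusted p 0.0280) were called lower by edgeR. Each of these calls other than that of LOC100678974 was lost on leaving out 6 to 8 of the 9 libraries. LOC100113517 (log2 -0.60, adjusted p 0.558), LOC100119445 (-0.51, 0.219), LOC100678142 (-0.60, 0.455), LOC100118143 (-0.85, 0.327) and LOC100116643 (-0.71, 0.405) were not called by edgeR. LOC100118143, whose fitted difference equalled that of LOC100118094, had 732, 935, 615, 1897 and 1168 TPM in 3N female abdomens, against 2071, 2143, 2033 and 2275 TPM in 2N female abdomens, with no overlap.

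Calls were most frequent among loci that were also measurable elsewhere. Of the 23 loci with 10 TPM or more in a low group 14 were called lower, of the 104 at 1 to 10 TPM 21, and of the 73 under 1 TPM 3. Their median log2 differences were -0.56, -0.70 and -0.66, so the loci called least often did not have the smallest differences. Their median levels in 2N female abdomens were 784, 223 and 218 TPM, so the 23 loci also differed from the rest in abundance. Of all genes tested, 10.1% were called lower.

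A few loci kept nearly the same level in all 3N abdomens. LOC100678254 had 212, 201, 203, 248 and 243 TPM in 3N female abdomens, against 398, 294, 328 and 314 TPM in 2N female abdomens. The 3N libraries lay close together and below every 2N library, B39A included. LOC100121228 had 186, 203, 173, 252 and 192 TPM in 3N female abdomens, against 322, 291, 261 and 279 TPM in 2N female abdomens, again with no overlap. LOC100120300 had 202, 189.9, 243, 267 and 227 TPM in 3N female abdomens, against 192, 289.8, 312 and 274 TPM in 2N female abdomens, and its groups overlapped. These 3 had the smallest spread among 3N abdomens (SD of log2 TPM 0.143 to 0.206).

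At the other end, LOC100121611, LOC103318011 and LOC100680075 were nearly absent from 1 of the 3N abdomens and most abundant in another. LOC100121611 had 0.19, 74.99, 125, 673 and 201 TPM in B36A, B37A, B38, B39A and B40A, against 323, 237, 241 and 213 TPM in 2N female abdomens. LOC103318011 had 0.23, 31.9, 60.4, 436 and 98.1 TPM in 3N female abdomens, against 168, 88.9, 118 and 87.4 TPM in 2N female abdomens. LOC100680075 had 0.82, 14.1, 290.2, 460.4 and 51.1 TPM in 3N female abdomens, against 155, 117, 123 and 78.3 TPM in 2N female abdomens. B36A, which held 5, 6 and 6 estimated counts of the 3 loci, lay far below every other female abdomen, and B39A above all of them. The SD of log2 TPM among 3N abdomens was 4.34, 3.91 and 3.63, and none of the 3 was called between ploidies.

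The 3 loci were the only ones of the 200 to depart by more than 2 log2 units from the common shift of a library. A departure of more than 1 was seen for 15 loci. Among all 435 loci past both thresholds, 11 stood in B36A under 5% of the lowest 2N female abdomen, the 3 named above and 8 at lower levels, and 0 did so in each of the other 3N abdomens. For all 11, B36A was the lowest 3N library and B39A the highest, at 1.22 to 3.89 times the 2N mean. This count was chosen after the values were seen. It was not made for other genes. Among the 5848 other genes at 10 TPM or more, some were nearly absent from each 3N abdomen. Their lowest log2 against the 2N mean was -9.86 in B36A, -9.31 in B37A, -9.86 in B38, -9.89 in B39A and -7.33 in B40A.

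**Figure D4:**
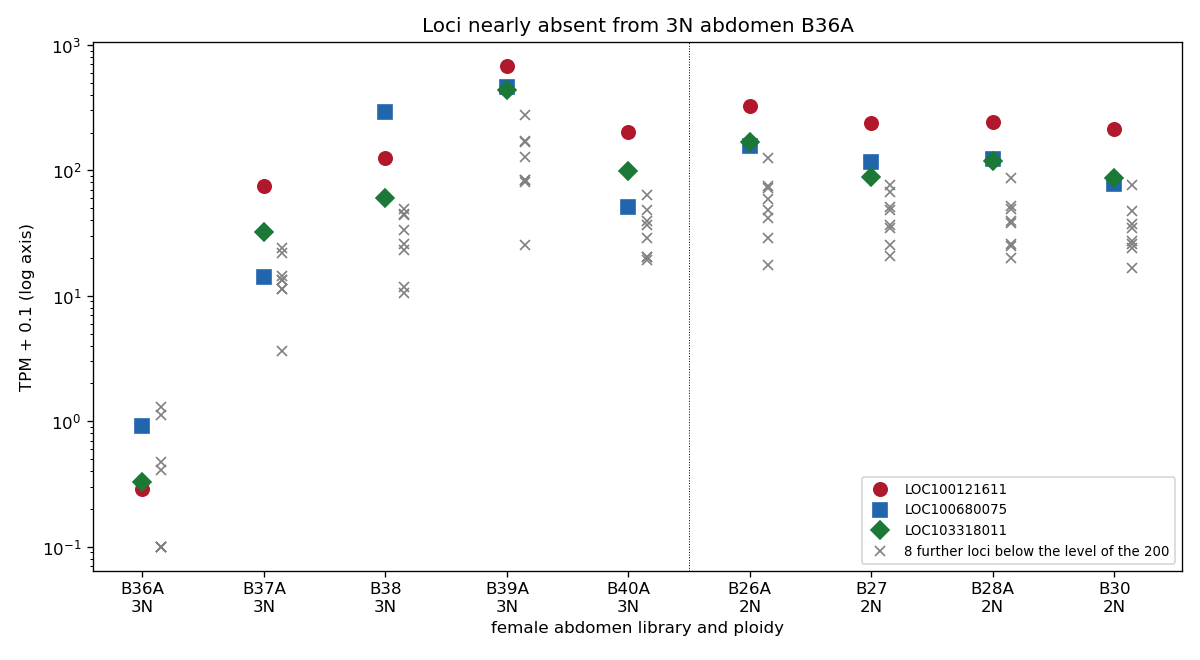
TPM with 0.1 added, on a log axis, of the 11 loci nearly absent from B36A in the 9 female abdomens, with 3N libraries to the left of the dotted line and 2N libraries to the right. LOC100121611, LOC100680075 and LOC103318011 belong to the 200, and crosses mark 8 further loci. All are lowest in B36A and highest among 3N abdomens in B39A.

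In female heads the loci were low, as the selection required of both groups without B21. The ploidy comparison rested on B21. Of 127 loci with enough counts, 1 was lower and 0 higher in 3N than in 2N female heads (edgeR, adjusted p under 0.05). Of the 10846 genes tested, 0.157% were lower. An unadjusted p under 0.05 was seen for 1986 of all genes tested and for 56 of the 127 loci (edgeR). The median log2 difference was -0.77 with B21 and -0.019 without it, and without B21, or without any other single female head, no locus was called (without B21, 10 at an unadjusted p under 0.05, smallest adjusted p 0.128, edgeR). The locus called was LOC100116643. It had 5.35, 7.98, 3.26, 2.74 and 1.55 TPM in 3N female heads, against 87.2, 19.6, 13.5, 44.95 and 15.1 TPM in 2N female heads, B21 first. Its groups did not overlap even without B21. The log2 difference was -3.10 ± 0.65 (SE, adjusted p 0.0425, edgeR) with B21 and -2.46 (adjusted p 0.155, edgeR) without it.

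B21 carried nearly the whole set. The median locus had 12.9 TPM in B21, against 0.935 to 1.72 TPM in the other 2N female heads, and 195 of 200 loci were higher in B21 than in each of those 4, as were 31.3% of the 13392 genes above 0 in any 2N female head. The selection required low levels in those 4 heads and not in B21. The excess over their mean amounted to 3.99% of the 2N female abdomen level for the median locus (quartiles 2.91% and 5.31%). LOC100113517 had 205 TPM in B21, against 2.74, 20.6, 1.88 and 1.24 TPM in B22 to B25 and 0.99 to 8.20 TPM in 3N female heads. LOC100678142 had 147 TPM in B21, against 2.89, 11.5, 3.78 and 4.13 TPM in B22 to B25. LOC100121988, LOC100119445 and LOC100119050, at 160, 131 and 131 TPM, made up the 5 highest in B21 with these. All 5 were among the 10 most abundant loci of 2N female abdomens.

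Other genes of female abdomens were raised in B21 as well. The 235 loci past the thresholds at lower levels had a median excess of 4.05% of the 2N female abdomen level, and the 18 named genes 2.79%. Of these, 212 and 17 were above the other 4 heads. Of 8 genes at least 16 times higher in 2N female and in both kinds of male abdomen than in female heads, 6 were above the other 4 heads, with a median excess of 2.33%. oskar had 151 TPM in B21. The muscle markers summed to 290.3 TPM in B21, against 378 to 499 TPM in the other 2N female heads. The fat body markers summed to 279 TPM, against 478 to 526 TPM. The other lists lay the other way. The neuronal genes summed to 2076 TPM in B21, against 1472 to 1757 TPM. The cuticle genes summed to 2038 TPM, against 1456 to 1964 TPM. The sperm and cilia genes summed to 36.99 TPM, against 26.32 to 33.61 TPM. Of the muscle genes, Tm2 was not lower in B21, at 42.91 TPM, against a mean of 39.2 TPM in the other 2N female heads. B23 also held more of the loci than B22, B24 and B25, and was the highest female head after B21 for LOC100113517 and LOC100678142.

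**Figure D5:**
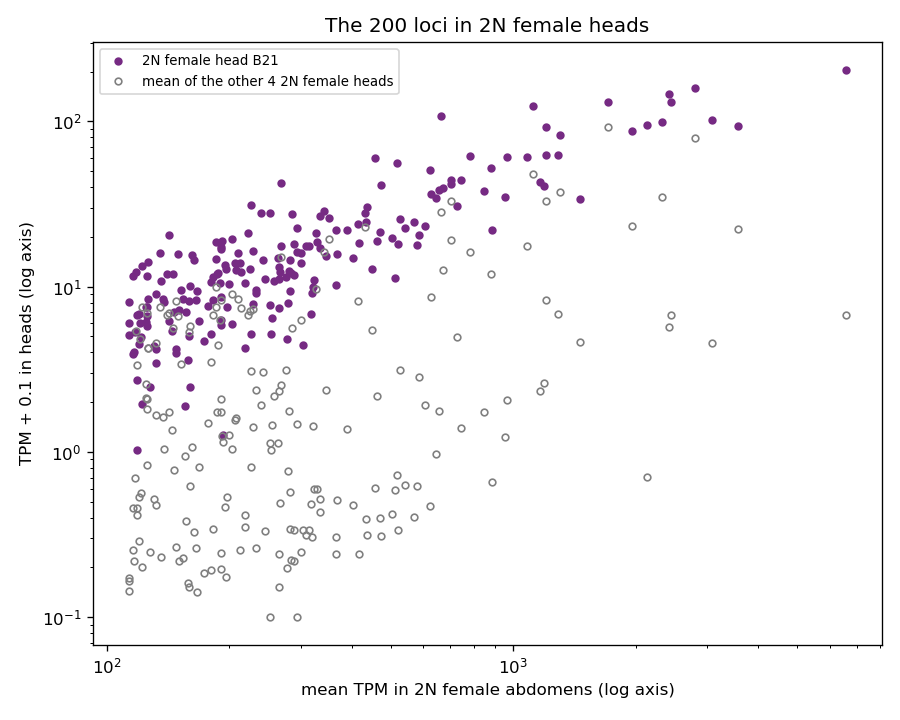
TPM with 0.1 added in the 2N female head B21 (filled) and the mean of the other 4 2N female heads (open) for the 200 loci, against their mean TPM in 2N female abdomens, both axes logarithmic. The medians over the loci are 12.9 TPM in B21 and 0.935 to 1.72 TPM in the other heads, and the B21 values follow the abdomen level.

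In male heads 0 of 127 loci tested differed between 2N and 1N at an adjusted p under 0.05 (edgeR), with 5 at an unadjusted p under 0.05. DESeq2 and limma called 0 as well. Of all genes tested by edgeR 0.0645% differed, and 1157 of 10846 had an unadjusted p under 0.05. The smallest adjusted p of a locus was 0.195, for LOC100118094. It had 20.6, 11.3, 38.96, 56.3 and 42.7 TPM in 2N male heads, against 28, 24.3, 158, 28.4 and 4347 TPM in 1N male heads, the last being B5D. A single library therefore held more of this RNA than any 3N or 2N female abdomen. The log2 difference was -4.60 ± 1.2 (SE) with B5D and -0.89 (adjusted p 0.636, edgeR) without it. Without this locus, the sum of the others in B5D was 0.107% of all TPM, against 0.0653% to 0.0846% in the other 1N male heads, so B5D was also highest for the rest, by far less. In B5D 6 genes had at least 100 TPM and over 20 times the level of every other 1N male head. LOC100118094 was the only one of the 200 among them, and LOC100113492 (2336 TPM) and LOC100114068 (767 TPM) were the next highest.

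The loci highest in male heads after LOC100118094 were LOC100119050, LOC100121988, LOC100116880 and LOC100121393. LOC100121988 had 97.7, 70.2, 81.6, 100.5 and 69.5 TPM in 2N male heads, against 53.7, 96.8, 69.2, 85.6 and 121 TPM in 1N male heads. The groups overlapped throughout.

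In male abdomens 1 of 200 loci was lower and 0 higher in 2N than in 1N at an adjusted p under 0.05 (edgeR). Of all genes tested 0.0168% were lower and 0.0252% higher. An unadjusted p under 0.05 was seen for 45 of the 200 loci and for 643 of the 11884 genes tested (edgeR). The selection had required low levels in both groups. The locus called lower was LOC103316021. It had 0 counts in all 5 libraries of 2N males, which allows up to 0.00734 CPM (counts per M counts) over the group, against 0, 13, 6, 9 and 14 counts in 1N males (adjusted p 0.00868, edgeR). At most 0.34 TPM in 1N males, it stood far under its 174 to 434 TPM in 3N and 422 to 579 TPM in 2N female abdomens. DESeq2 called 14 loci, all lower, in this comparison, where it called 0.597% of all genes, and limma called 0 loci.

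Of features that the selection did not use, only length, gene order and shared reads were described. Their relative effective length, the ratio of count to TPM scaled across genes, had a median of 0.709, against 0.951 for genes at 10 TPM or more in 2N female abdomens. By gene order in RefSeq, 27 of the 200 lay beside another of the 200, in 12 pairs and 1 triple (LOC100123836, LOC100123833 and LOC100123830). No such share was worked out for other genes. LOC116415987 and LOC116416013 each lay beside another member, LOC100679057 and LOC116416005, and LOC100118143 beside LOC100118180. Reads shared between genes show as estimated counts that are not whole. They were seen in at least 10 libraries for 32 of 200 loci (16%), against 26.2% of genes at 10 TPM or more in 2N female abdomens. For 24 of these 32 a single partner gene took up the remaining fraction, and 21 partners were neighbours. LOC100123843, LOC100114323 and LOC100679130, among the loci called most firmly, share reads with such a neighbour. LOC116416013 and LOC116416012, both among the 200 and 9 genes apart, share reads with each other, so their separate levels are uncertain. LOC116416012 was listed at 0 in all 2N male abdomens and in 4 of 5 2N male heads, and at 23.1 TPM in the other 2N male head.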

How the data were processed

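Poly(A) RNA was sequenced from 39 libraries in 8 groups read from the labels. Per the submitters' processing notes, STAR (2.7.11a) and RSEM (1.3.1) were used, and the genome build is not given in the sources used here. The authors deposited estimated counts for 14621 genes, of which 16.8% of values are not whole, and a TPM table for 14613 genes. Estimated counts were rounded and tested with edgeR 4.0.16 (R 4.3.3, TMM, filterByExpr, quasi-likelihood F test, two-sided, Benjamini-Hochberg over all genes tested). Abdomens were fitted together, heads together, and all libraries for abdomens against male heads. Alternatives were DESeq2 1.42.0, limma 3.58.1 on log2 of deposited TPM plus 1 or 0.1, no filter, other scalings and left-out libraries. Scripts were tested on simulated counts. Levels are TPM per library, and log2 differences carry the standard error of the fit. The limit given for a count of 0 covers counting error only.

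The members and marker lists were chosen with earlier results of these data known. Named loci are the 10 most abundant, the 5 largest called rises (0 existed) and falls, the 5 highest in B21 and in male heads, the 3 with the smallest and the 3 with the largest spread among 3N abdomens, and those at the level threshold. Of the named genes only a selection is printed, and 1 result among them is not reported here. All 200 symbols matched the RefSeq table. Protein families, promoters and sequences were not analysed here. All 76 pairs of libraries from the same group differed by more than sampling noise, with a chi-square of at least 10.8 times its degrees of freedom.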

Additional observations from a re-analysis of the deposited data

Results flagged for a closer look

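Single libraries far from the rest of their group were looked for in 67 sets of values printed above, and 15 were found. The chance rate of about 1 in 20 sets does not apply here, since several loci were named for such values. They were picked as highest in B21 or in male heads, or for a large spread among 3N abdomens. The sets are also not independent, since many share a library. The 2N female head B21 stood apart for the summed level of the loci (0.474% of TPM), for LOC100113517 (205 TPM), for LOC100678142 (147 TPM), for LOC100121988 (160 TPM), for LOC100119445 (131 TPM) and for oskar (151 TPM). The 1N male head B5D stood apart for the summed level (0.542%) and for LOC100118094 (4347 TPM), which made up most of that sum. The 3N female abdomen B39A stood apart above its group for LOC100121988 (3403 TPM), LOC100680355 (234 TPM) and LOC103318011 (436 TPM) and for the named genes nanos (633 TPM) and cycB (983 TPM). The 2N female abdomen B30 was apart from 3 nearly equal libraries for LOC100123843 (1355 TPM). The 1N male abdomen B10 was apart for LOC100113517 (4.49 TPM), a low level. The causes were not tested.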

How the results depend on the processing

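In every setting tried, the loci called between 3N and 2N female abdomens were lower in 3N and none was higher, but their number moved. Against 38 of 200, it was 158 with female abdomens alone, 65, 163 and 157 with limma on log2(TPM + 0.1), on log2(TPM + 1) and on log2(TPM + 1) with no filter, 93 without B39A and B6A, 18 with libraries under 30 M counts alone, and 14 to 52 on leaving out 1 library. DESeq2 (45), no count filter (35), library totals (38) and TMM without genes apart between the sexes (32) stayed within 1.5 times. The share of all genes called lower also moved. It was 10.1% in the fit of all abdomens and 19.7% with female abdomens alone. With limma it was 20.1% on log2(TPM + 0.1) and 24.1% on log2(TPM + 1). It was 14.98% with DESeq2, 11.1% with library totals, 9.1% with the restricted TMM and 0.894% with libraries under 30 M counts. This share is not given here for the settings with no filter or without both B39A and B6A. The loci below all 2N abdomens numbered 185 without B39A, in place of 71, an alternative added after seeing the data. All 200 loci, or 199 with DESeq2, were called higher in 3N female abdomens than in male heads. For 3N against 2N female heads the count of 1 became 14 with DESeq2, 0 with no filter, 2 with library totals, and 0 to 0 on leaving out 1 library. Shares of all genes for these head settings are not given here. For 2N against 1N male abdomens the count of 1 became 14 with DESeq2, 0 in each of the 3 limma settings, and 1 to 3 on leaving out 1 library. It was 0 in every setting for male heads. The mean summed level of 5.27% in 3N and 9.21% in 2N female abdomens became 6.56% and 11.1% with a fold threshold of 8, 4.5% and 7.92% with 32, and 6.79% and 10.5% as shares of estimated counts. Of results for single genes over these settings, 435 kept their direction and side of the threshold, 71 lost a call, 24 gained one and 21 changed sign. The changes of sign concern 4 loci that were not called in those settings. LOC100120300 came to 0.010 with female abdomens alone, 0.018 with the restricted TMM, and -0.068 to 0.13 on leaving out 1 library. LOC103318011 came to -1.86 with limma on log2(TPM + 0.1), -1.48 on log2(TPM + 1) with either filter, -1.0 without B39A and B6A, and -0.94 (without B39A) to 0.46 on leaving out 1 library. LOC100680075 came to -1.57 and -1.36 with limma, -0.095 without B39A and B6A, -0.018 with libraries under 30 M counts, and -0.030 (without B39A) to 0.84 on leaving out 1 library. LOC100121611 came to -0.99 to 0.15 on leaving out 1 library. The cause was not tested in these cases. No paired analysis was possible because library numbers are not shared between groups. In heads, 73 of 200 loci had too few counts to be tested, and the selection had required low levels in female heads.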
